A study of Mus musculus with 2 samples.

Results

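The interferon pathway and interferon-stimulated genes were examined as 42 named mouse genes, matched by gene identifier to their symbols in the gene tables of both libraries. They were 42 of the 43346 Ensembl genes quantified, and all 42 were found. The set holds 4 receptor chains, 2 STAT transducers, 7 interferon regulatory factors (IRFs), 4 nucleic acid sensors, 15 antiviral effectors, 3 interferon-induced transmembrane (IFITM) genes, 4 immunity GTPases and 3 further stimulated genes. The rule uses gene names and no measured value, though the members were chosen with earlier results of these data known.

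The tissue was whole urinary bladder of 8-week-old adult C57BL/6J mice, an inbred laboratory strain, with no treatment named in the labels. The series has 1 group of 2 libraries, biological replicates 1 and 2, made from polyadenylated RNA, with stranded paired-end sequencing per the labels. The libraries have separate biosample entries but name the same donor entry, littermates of both sexes are mentioned, and no sex or number of animals is recorded for either library. An SD here is thus no more than the difference of these libraries, possibly technical, and the p-values cover counting error only. Markers of the expected tissue were abundant: the smooth muscle actin gene Acta2 had 8841 and 8508 TPM (a transcript level corrected for length and depth) in replicates 1 and 2, and the uroplakin gene Upk1a had 1612 and 2342 TPM. Gene counts came to 99367453 and 105057347. In whole tissue, fewer cells of a type and less RNA per cell cannot be told apart.

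Interferons are secreted proteins released when a cell senses viral or bacterial nucleic acid. Type I interferons bind the receptor of Ifnar1 and Ifnar2 and act through a complex of STAT proteins with IRF9 on a DNA element called the ISRE. Type II interferon, the product of Ifng, binds the receptor of Ifngr1 and Ifngr2 and acts through STAT dimers on an element called GAS. Both routes raise genes for antiviral effectors, and the immunity-related and guanylate-binding GTPases are classical targets of the type II route. Several pathway genes also have a basal level in resting tissue.

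The start regions of 8 members are shown because they carry the ISRE core and include the 4 GTPases, which differed most as a group between the libraries, and 4 members from the effector and IFITM groups that did not pass the same test. Sequences are from RefSeq on GRCm38.p6 and run 5′ to 3′ along the gene's strand, with positions counted back from the RefSeq transcript start. Capitals mark each match to the core GAAANNGAAA, read on either strand, so that a match on the other strand appears with TTTC in place of GAAA. Bases inside a GENCODE M21 exon were left out, except for Gbp2 and Irgm1, where the core lies in a first exon of M21 and only 30 bases are printed.
Gbp2 (chr3:142620594-142620623, plus strand): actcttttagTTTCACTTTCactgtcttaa
Gbp3 (chr3:142559894-142560025, plus strand): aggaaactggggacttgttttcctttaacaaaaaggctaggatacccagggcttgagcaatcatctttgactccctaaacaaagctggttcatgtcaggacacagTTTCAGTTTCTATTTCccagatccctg
Igtp (chr11:58199406-58199555, plus strand): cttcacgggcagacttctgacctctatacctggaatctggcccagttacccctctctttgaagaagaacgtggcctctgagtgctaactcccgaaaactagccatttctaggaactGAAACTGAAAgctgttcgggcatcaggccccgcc
Irgm1 (chr11:48871428-48871457, minus strand): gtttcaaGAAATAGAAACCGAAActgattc
Isg15 (chr4:156200819-156200968, minus strand): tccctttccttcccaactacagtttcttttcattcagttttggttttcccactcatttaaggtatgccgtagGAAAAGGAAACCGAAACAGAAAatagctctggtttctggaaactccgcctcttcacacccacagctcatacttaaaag
Ifit1 (chr19:34640744-34640870, plus strand): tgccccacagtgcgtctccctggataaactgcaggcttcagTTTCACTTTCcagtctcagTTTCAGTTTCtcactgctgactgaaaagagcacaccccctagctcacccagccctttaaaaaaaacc
Bst2 (chr8:71537473-71537622, minus strand): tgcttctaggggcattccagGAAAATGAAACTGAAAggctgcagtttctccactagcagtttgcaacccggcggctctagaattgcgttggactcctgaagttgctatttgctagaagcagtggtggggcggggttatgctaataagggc
Ifitm2 (chr7:140955988-140956111, minus strand): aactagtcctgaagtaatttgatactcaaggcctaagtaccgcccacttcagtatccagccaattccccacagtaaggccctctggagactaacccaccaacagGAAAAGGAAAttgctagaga

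In these runs the cores of Isg15 form 3 overlapping matches in a row, Ifit1 has 2 separate matches, and Gbp3, Irgm1 and Bst2 have 2 overlapping ones. RefSeq windows of 250 bases before to 50 after the start were matched for 36 of the 42 members, and Usp18, Mx1, Mx2, Oas2, Dhx58 and Zbp1 were not matched. The ISRE core was found in 17 of the 36 members, against 3.99% of the 27025 genes with a window. By role it was found in all 4 GTPases, in 7 of the 11 effectors with a window (Bst2, Ifit1, Ifit3, Isg15, Oas1a, Oas3 and Rsad2), in Ifitm2 and Ifitm3, in the sensors Ddx58 and Ifih1, and in Stat2 and Irf2. None of the 4 receptor genes held it. The GAS core, TTCNNNGAA, which reads the same on both strands and may overlap an ISRE match, was found in 12 of the 36 members against 9.55% of all genes. Those 12 were Ifnar1, Ifnar2, Irf1, Irf2, Irf8, Bst2, Ifit2, Isg20, Oas1a, Ifitm3, Igtp and Ifi35. Irf2, Bst2, Oas1a, Ifitm3 and Igtp held both cores. A match describes the letters of a window and is not a bound site.

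**Figure D1:**
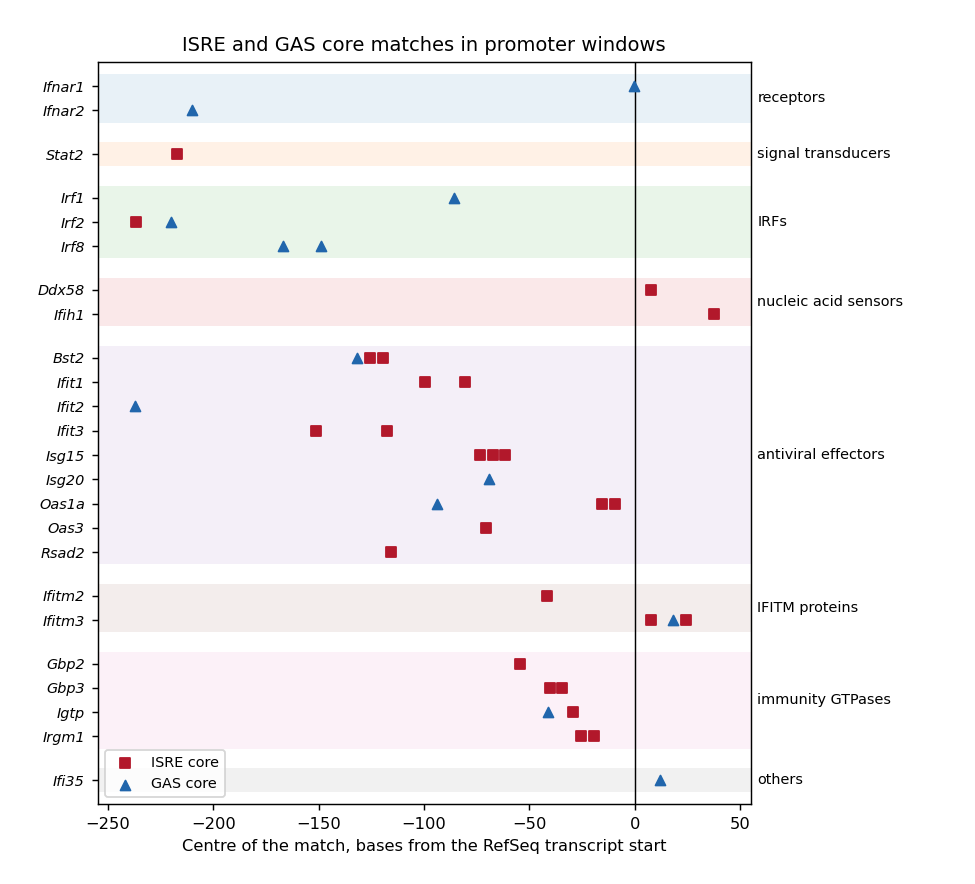
Positions of the ISRE core (squares) and the GAS core (triangles) in the RefSeq windows of the members that hold either, by role, in bases from the RefSeq transcript start. The cores of the 4 GTPases lie between 59 and 15 bases before the start, while those of Ddx58, Ifih1 and Ifitm3 lie after it.

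Most of the members were transcribed in this tissue. With 1 group and no stimulated or blocked reference, a basal level cannot be told apart from an induced one. At least 1 TPM in both libraries was reached by 41 of the 42 members, against 60.5% of the 21474 protein-coding genes of M21. The exception was Oas3. Because the members were chosen with earlier results of these data known, this comparison is description only. The members together took 0.242% and 0.255% of all gene TPM, a mean of 0.249% ± 0.00867 (SD, n = 2), and the 3 IFITM genes alone supplied 55.4% and 60.2% of the members' total. The mean levels ran from 0.44 TPM for Oas3 to 655 TPM for Ifitm2, with a median of 19.3 TPM.

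The interferon genes themselves were near or at 0. Of 10 ligand genes looked at beside the members, none reached 1 TPM in both libraries, and 8 (Ifnb1, Ifna1, Ifna2, Ifna4, Ifna5, Ifnk, Ifnl2 and Ifnl3) had 0 counts in both. A count of 0 allows up to 3 counts (a one-sided 95% limit), or 0.0302 and 0.0286 CPM, counts scaled to the library total, in replicates 1 and 2, counting error only. Ifng, the type II interferon made mainly by T and natural killer cells, had 33 counts in replicate 1 (95% exact Poisson interval 22.7 to 46.3) and 16 in replicate 2 (9.15 to 26.0), and these intervals overlapped. Ifne, a type I interferon of epithelia, had 20 and 14 counts, and its intervals of 12.2 to 30.9 and 7.65 to 23.5 overlapped as well.

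All 4 receptor chains were present at like levels in both libraries. Ifngr1, the ligand-binding chain for type II interferon, had 45.9 and 49.8 TPM. Its partner Ifngr2 had 22.3 and 25.5 TPM. Ifnar2, the high-affinity type I chain, had 47.9 and 43.4 TPM. The second type I chain, Ifnar1, had 23.0 and 23.4 TPM. In gene totals 1 chain of each receptor was thus about 1 log2 unit above the other. Ifngr1 exceeded Ifngr2 by 0.99 ± 0.05 and Ifnar1 lay below Ifnar2 by a log2 ratio of -0.96 ± 0.12 (SD, n = 2), both larger than the spread between the libraries. For the type I chains the long forms had the other order. The 513-residue Ifnar2-201 had 9.65 and 10.35 TPM, and the 590-residue Ifnar1-201 had 17.79 and 17.15 TPM. The counts of Ifnar2 were not whole, so some reads were shared with other genes. Ifnar2, Ifnar1 and Ifngr2 lie in this order on chromosome 16, 79.6 and 39.6 kb apart, with other genes such as Il10rb between them, and Ifngr1 is on chromosome 10.

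Of the transducers, Stat3, which serves many cytokines beside interferons, had 72.2 and 68.7 TPM, and Stat2, the partner of IRF9, had 16.7 and 15.2 TPM. Stat3 exceeded Stat2 by 2.11 ± 0.04 log2 units. Irf9, the DNA-binding part of the type I complex, had 24.6 and 22.1 TPM and stood above Stat2 in each (log2 ratio of Stat2 to Irf9, -0.54 ± 0.01). Of 6 kinases and other receptor or transducer genes of the pathway, all were over 1 TPM in both libraries, and Il10rb, a chain of the type III interferon receptor, had 36.6 and 41.2 TPM.

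The IRFs spanned 11.1 to 103 TPM. Irf3, the constitutive factor that starts interferon transcription after nucleic acid sensing, was the highest at 87.6 and 118 TPM. Irf7, which amplifies that response and is itself interferon-induced, had 15.6 and 18.7 TPM, a log2 ratio of Irf3 to Irf7 of 2.54 ± 0.12. Irf1, an activator downstream of type II interferon, had 62.3 and 53.6 TPM. Irf2, an antagonist of Irf1 on shared sites, had 18.7 and 9.69 TPM, the widest gap of the 7 between the libraries on the log scale. The log2 ratio of Irf1 to Irf2 was 2.06 ± 0.49. The myeloid factors Irf5 and Irf8 had 13.8 and 15.9 TPM, and 12.7 and 9.40 TPM, in replicates 1 and 2. Their log2 ratio, Irf8 to Irf5, was -0.42 ± 0.43 and did not exceed the spread between the libraries, so no order between these 2 factors can be given.

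The cytosolic sensors were of moderate level. Ddx58, which encodes the RNA sensor RIG-I, had 17.5 and 13.8 TPM. Ifih1, which encodes the long double-stranded RNA sensor MDA5, had 6.41 and 5.33 TPM and lay below Ddx58 by a log2 ratio of -1.34 ± 0.06. Dhx58, their regulatory relative LGP2, had 3.91 and 4.86 TPM. Zbp1, a sensor of Z-form nucleic acid linked to necroptosis, had 11.0 and 8.52 TPM. All 10 matched adaptor and sensor genes upstream of interferon were over 1 TPM in both libraries and none was called different between them, with Mavs, the mitochondrial adaptor of RIG-I and MDA5, highest at 35.1 and 35.5 TPM, then the kinase genes Tbk1 at 14.3 and 18.4 TPM and Ikbke at 14.9 and 15.9 TPM.

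The 15 effectors ranged widely, with a median of 6.29 TPM. Bst2, tetherin, which holds budding virions on the cell surface, was the highest at 81.7 and 78.2 TPM. Isg20, a 3′ exonuclease, had 30.2 and 31.7 TPM. The libraries were close for both. Of the tetratricopeptide genes that bind foreign RNA, Ifit3 had 31.3 and 22.2 TPM, Ifit1 6.94 and 6.54 TPM and Ifit2 5.87 TPM in each library. Ifit3 exceeded Ifit1 by 1.89 ± 0.29 log2 units. These 3 genes lie within 1 cluster on chromosome 19, with gaps of 7.11 and 52.1 kb, and the counts of Ifit3 in both libraries and of Ifit1 in replicate 1 were not whole, so some reads there were shared with other genes. Isg15, a ubiquitin-like modifier, had 10.5 and 11.7 TPM, and Usp18, the protease that removes it and dampens the type I receptor, had 10.8 and 14.0 TPM. Their log2 ratio, Usp18 to Isg15, was 0.15 ± 0.14, hardly above the spread. Rsad2, viperin, was low at 2.46 and 1.88 TPM.

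The 2′-5′ oligoadenylate synthetase family, whose active enzymes make the signal for RNase L, had its highest member in Oasl2, at 22.5 and 20.3 TPM, while Oasl1, 11.0 kb away on chromosome 5, had 1.53 and 1.28 TPM. The log2 ratio of Oasl2 to Oasl1 was 3.52 ± 0.03. Oas2 had 5.79 and 6.78 TPM, and Oas1a, whose reads are partly shared with near-identical copies, had 3.72 and 4.30 TPM. Oas3, 3.24 kb from Oas2, had 197 counts and 0.65 TPM in replicate 1 and 87 counts and 0.23 TPM in replicate 2. The authors' intervals for Oas3, 0.556 to 0.855 TPM and 0.197 to 0.360 TPM, do not overlap.

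The dynamin-like Mx genes, which block viral nucleocapsids, were low as well: Mx1 had 1.5 and 1.61 TPM and Mx2 had 2.17 and 2.60 TPM. Most classical inbred strains are known to carry defective Mx1 alleles. The log2 ratio of Mx1 to Mx2 was -0.49 ± 0.10 in the mm10 tables but 0.14 from the authors' mean RPKM on mm9, so the order of this pair depends on the quantification.

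The IFITM genes, which encode small membrane proteins that hinder viral entry, stood far above the other groups. Ifitm2 (chr7:140954837-140955987) had 606 and 705 TPM and ranked at the 98.7th percentile of the 14191 genes with at least 1 TPM in both libraries. Ifitm3 (chr7:141009586-141010770), 39.8 kb from Ifitm1, had 487 and 448 TPM. Ifitm1 (chr7:140967221-140969825) had 168 and 260.5 TPM. The log2 ratio of Ifitm3 to Ifitm2 was -0.48 ± 0.24 and that of Ifitm2 to Ifitm1 was 1.64 ± 0.29, so the order Ifitm2, Ifitm3, Ifitm1 was the same in both libraries. Of the bases in Ifitm2 exons, 40.9% are also exon of the predicted gene Gm45717 on the same strand.

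The 4 GTPases act on vacuoles of intracellular pathogens. Gbp2 (ENSMUSG00000028270.8, chr3:142620602-142638008) had 99.0 TPM in replicate 1 and 57.2 in replicate 2. Gbp3 (ENSMUSG00000028268.10), 47.4 kb away, had 36.7 and 28.2 TPM. Irgm1 (ENSMUSG00000046879.6, chr11:48861968-48871683) had 44.7 and 26.4 TPM. The last of the group, Igtp (ENSMUSG00000078853.4, chr11:58199556-58207591), had 39.9 and 17.9 TPM. In each of them replicate 1 was the higher library. Of the remaining members, Ifi35 had 46.6 and 60.1 TPM, the apoptosis-linked Xaf1 26.4 and 25.6 TPM and Ifi44 2.70 and 2.67 TPM. The libraries were nearly equal for the last pair of genes.

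**Figure D2:**
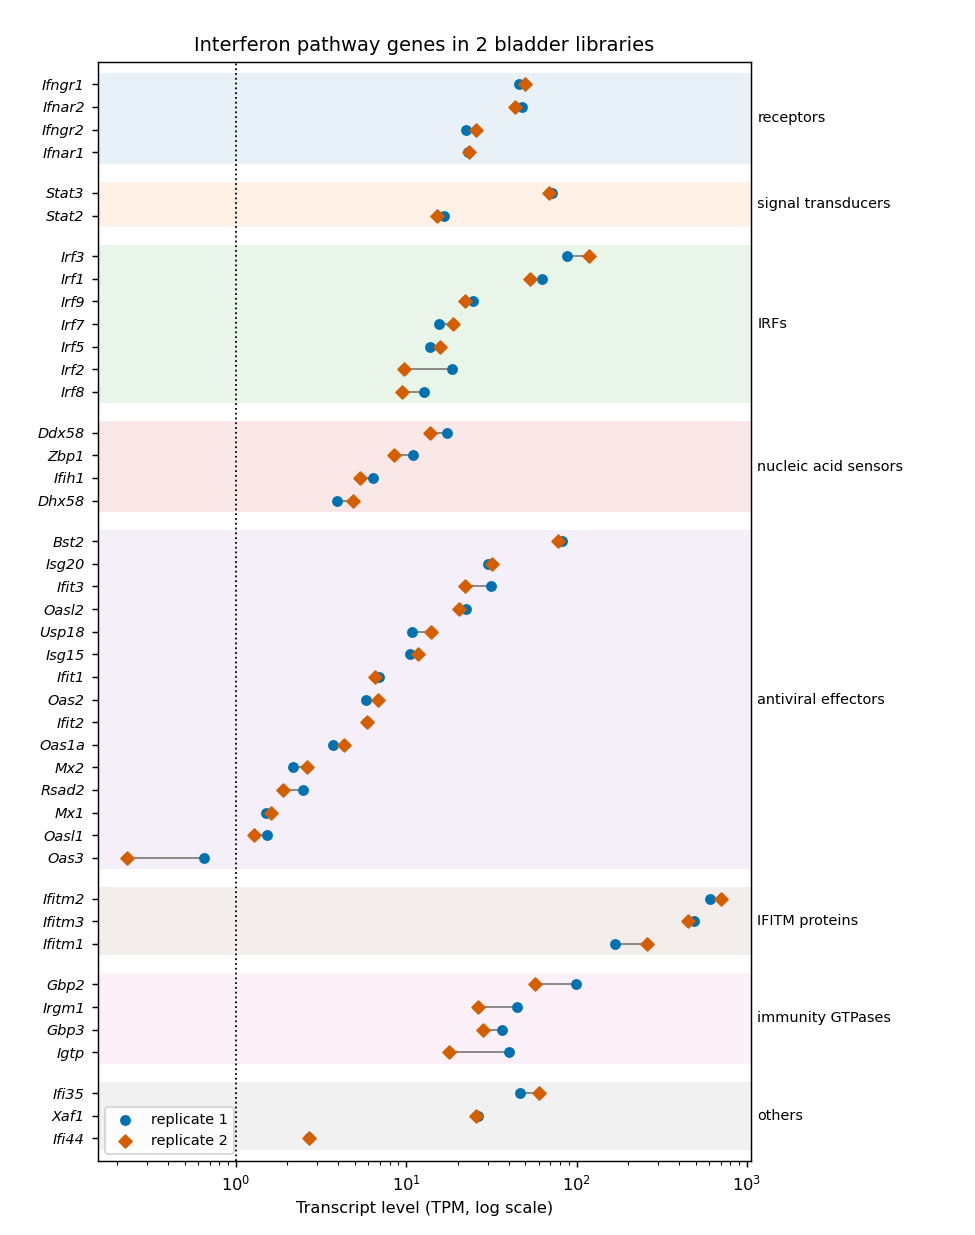
Level of each of the 42 members in TPM on a log axis, by role, with a circle for replicate 1, a diamond for replicate 2 and a dotted line at 1 TPM. The IFITM genes lie between 168 and 705 TPM, Oas3 lies left of the line, and Igtp, Irf2 and Oas3 have the widest gaps between circle and diamond.

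Other genes of the pathway, the ligands excepted, were transcribed as well. All 19 matched genes of a list of other stimulated genes were over 1 TPM in both libraries, the highest being Ifi27l2a at 292 and 347 TPM, Ifi27 at 141 and 201 TPM and Lgals3bp at 130 and 116 TPM. Gbp5 of that list and Mb21d1 of the sensor list matched no symbol. Of 5 feedback genes, which restrain the pathway, all were over 1 TPM in both libraries and none was called different between them. The highest were Pias1 at 17.4 and 18.2 TPM, Ptpn6 at 11.9 and 13.7 TPM and Ptpn2 at 9.68 and 8.42 TPM.

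Transcript shares differed among members that have several quantified transcripts. Of 32 such members over 1 TPM, 26 had 1 transcript that held more than 50% in each library, and 26 had more than 50% in forms annotated as protein coding in M21. These shares are estimates from short reads, and the M21 names were given to transcripts quantified with an earlier annotation, M4.

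For Ifnar2, the main form was not the transmembrane receptor. Ifnar2-203, a form of 248 residues, took 73.1% and 68.7% of the gene's TPM, while Ifnar2-201, of 513 residues, took 20.1% and 23.8%. In M21, Ifnar2-203 shares the start of exon 7 with Ifnar2-201 but ends inside a longer version of it, of 284 bases against 157, with no further splice. Short forms of this receptor that lack the membrane anchor are known as soluble binding proteins. The mm9 junction reads, summed over both libraries, bear on the same exon (chr16:91394002-91394158): 876 reads spliced into it, 120 spliced out to the next exon and 31 skipped that exon. The junction from that next exon to the last exon had 233 reads, more than the 120 that entered it, so single junctions do not give a share of the forms. The mm9 gene model of Ifnar2 runs on into further exons downstream. Their junctions were not used for these forms but are part of the members' junction totals given below.

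The other receptor chains were mainly in their long forms. Ifnar1-201 (590 residues) took 77.3% and 73.4%, beside 8.43% and 16.3% for Ifnar1-203, which is annotated for nonsense-mediated decay, a pathway that removes transcripts with early stop codons. Ifngr1-201 (477 residues) took 94.9% and 94.0%, and Ifngr2-201 (332 residues) 82.1% and 72.6%. Ifngr2-202, also annotated for nonsense-mediated decay, took 17.8% and 27.4%. Of the transducers, Stat2-201 took 98.4% and 97.0% and the 770-residue Stat3-203 took 79.0% and 75.9%.

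Among the IRFs, the 329-residue Irf1-202 held 72.8% and 78.6%, and the 199-residue Irf1-208 held 17.7% and 8.21%. Irf7 was divided: the coding Irf7-201 held 41.5% and 31.6%, and Irf7-210, which retains an intron, 26.2% and 33.9%. The order of these forms of Irf7 differed between the libraries. Irf8-201 held 88.8% and 81.9%, Irf9-202 69.3% and 72.1%, and Irf9-203 10.2% and 10.4%. Irf5-201 and Irf5-202, which encode proteins of the same 497 residues, held 83.7% and 90.4%, and 14.5% and 7.93%. Most quantified transcripts of Irf3, with 92.2% ± 2.54 (SD, n = 2) of its TPM, have identifiers absent from M21 and are not described by class.

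Several effectors and sensors were mostly in forms other than the full coding one. Mx1 was the clearest case: Mx1-205, annotated for nonsense-mediated decay, held 64.9% and 76.5%, Mx1-202, of 397 residues, 31.1% and 17.9%, and the full-length Mx1-201, of 627 residues, had 0 counts in both libraries. For Mx2, Mx2-202, annotated as a polymorphic pseudogene, held 52.5% and 47.9%, the intron-retaining Mx2-205 24.4% and 35.5%, and Mx2-203 20.7% and 16.6%. Both rest on low counts, 286 and 353 for Mx1 and 234 and 275 for Mx2. Oasl2-205, annotated for nonsense-mediated decay, held 50.1% and 51.3%, against 27.9% and 26.4% for the 508-residue Oasl2-201. For Zbp1, the 187-residue Zbp1-202 held 51.8% and 61.4% and the 411-residue Zbp1-201 37.0% and 28.0%, with the intron-retaining Zbp1-203 at 11.2% and 10.6%. For Ddx58, the 926-residue Ddx58-201 held 47.0% and 40.5%, close to the 39.1% and 41.4% of Ddx58-205, a processed transcript.

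Others kept the coding form in front. Ifih1-201 held 68.6% and 76.9% and Ifih1-202 21.7% and 9.96%, and Dhx58-201 held 79.3% and 69.5% beside 14.8% and 19.5% for Dhx58-204, a processed transcript. Rsad2-201 held 97.2% and 100%, and Ifit2 was divided between Ifit2-201 (84.3% and 73.8%) and the 43-residue Ifit2-202 (15.7% and 26.2%). Oasl1 rested on 170 and 162 counts, with 51.0% and 66.4% in Oasl1-202 and 30.1% and 18.0% in Oasl1-205, and with posterior mean TPM Oasl1-202 held 45.0%. Oas2-201 held 59.4% and 53.1% and the intron-retaining Oas2-204 27.6% and 36.7%. Isg20-201 held 80.4% and 77.7% and the intron-retaining Isg20-205 9.64% and 12.4%. Ifi35-201 held 67.7% and 65.2% and Ifi35-203, annotated for nonsense-mediated decay, 24.0% and 26.7%. Ifi44-201 held 79.6% and 78.0% and Ifi44-204 15.9% and 17.5%. In Xaf1 no form reached 50%: Xaf1-202 held 34.7% and 33.4%, Xaf1-201, annotated for nonsense-mediated decay, 23.6% and 29.1%, Xaf1-205 18.1% and 12.1%, and Xaf1-203 14.9% and 14.1%.

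The GTPases were almost wholly in forms annotated as coding. Gbp2-201 held 99.8% and 99.9% of the gene's TPM and Igtp-201 held 84.9% and 83.9%. Irgm1-201 and Irgm1-202, which encode 409 and 393 residues, held 60.7% and 63.2%, and 38.9% and 36.3%, with 27.2 and 16.7 TPM for the first and 17.4 and 9.60 TPM for the second. Both were lower in replicate 2. In Gbp3 the 620-residue forms Gbp3-202 and Gbp3-203 had 14.3 and 10.2 TPM, and 12.0 and 6.29 TPM, while the 135-residue Gbp3-205 had 8.90 and 10.5 TPM and was not lower in replicate 2. Ifitm1-202 and Ifitm1-201, which encode the same 106 residues, held 58.1% and 66.0%, and 39.0% and 31.4%.

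**Figure D3:**
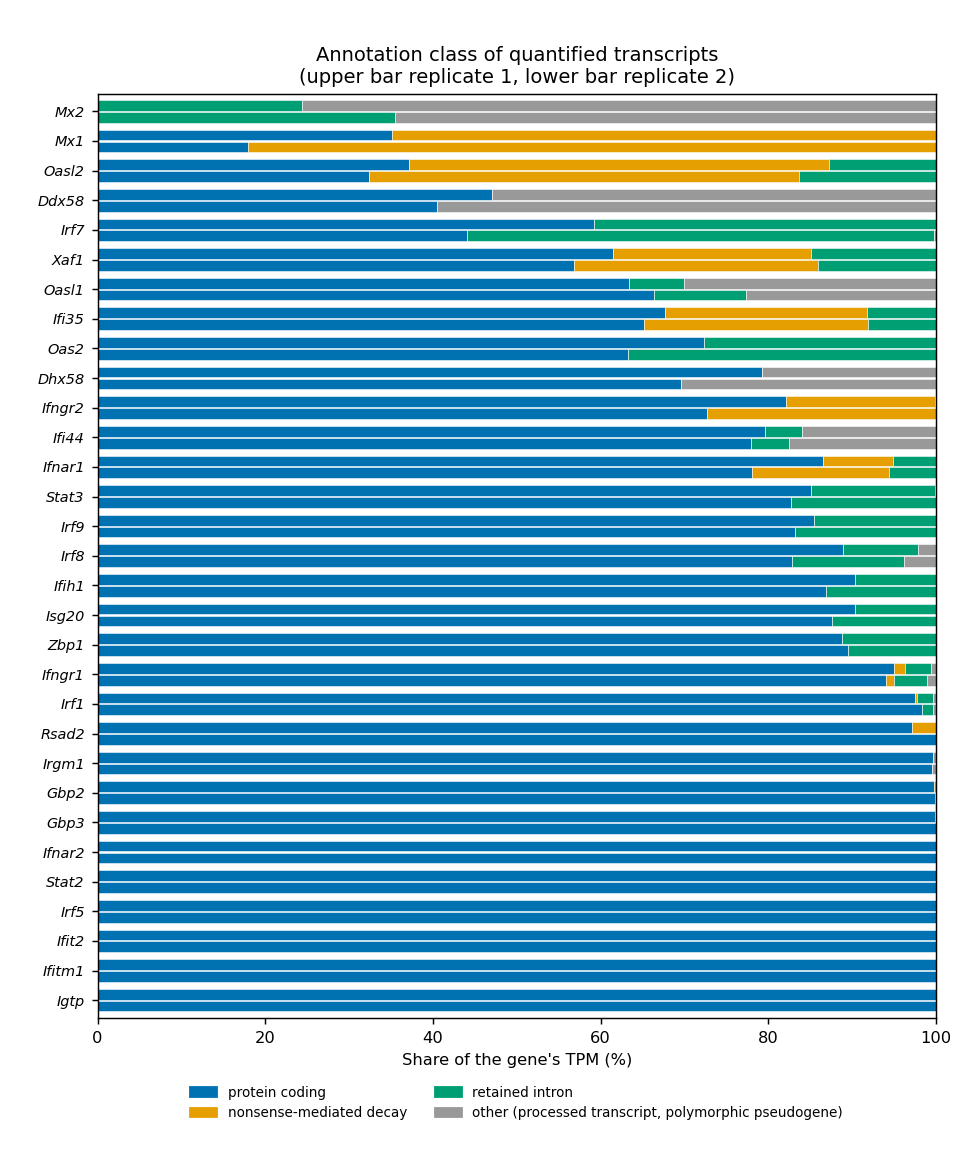
Share of each gene's TPM by the M21 class of its transcripts, in percent, for the members with at least 2 quantified transcripts and 1 TPM in both libraries, Irf3 left out. The upper bar is replicate 1 and the lower bar replicate 2. Mx2, Mx1 and Oasl2, at the top, have the smallest coding share, and the GTPases at the foot are almost entirely coding.

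Annotated splice junctions were read for all 42 members on mm9, 391 junctions with 192616 reads. Junctions that the authors marked as not annotated took 1.34% of the members' junction reads, against 3.73% over all junctions. The largest was in Usp18 (chr6:121196079-121202332 on mm9), with 181 reads beside 260 to 460 reads at each of the 9 annotated junctions of that gene. Oas2 had 13.7% of its reads on junctions not annotated, the highest share, with 48 and 47 reads at the leading 2 of them. These 2 and the Usp18 junction were picked after their values were seen.

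The last comparison asked which members differed between the libraries beyond counting error. Each gene was tested with an exact two-sided binomial test on its counts, scaled by trimmed mean of M-values (TMM), with Benjamini-Hochberg adjustment over 18003 genes, and was called at an adjusted p of 0.05 and a fold of at least 1.5. With 1 group there is no estimate of the spread between animals, so a call compares these libraries only. Of the 42 members, 8 were lower in replicate 2, against 7.92% of all genes tested, and 0 were higher, against 3.47%. Without the fold threshold, 22 members were lower and 7 higher, against 31.7% and 31.8% of all genes tested. Scaling by total counts moves all genes up by a median of 0.13 (log2), so that 988 genes are called lower and 1220 higher in place of 1426 and 624, and members called lower become 5 and higher 1. Relative to all genes, the members' median log2 ratio was -0.16, against 0.00 for all tested genes.

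The 4 GTPases made up 4 of the 8 calls. Igtp was lower in replicate 2 by 2.35-fold (adjusted p = 8.32e-310, exact binomial test), Gbp2 by 1.82-fold, Irgm1 by 1.75-fold and Gbp3 by 1.60-fold. All 4 kept this direction under TMM, DESeq2 size factors, total counts and an adjustment for transcript length, and all but Gbp3 kept the call under total counts. In TPM, Gbp3 differed by less, a log2 ratio of -0.46 relative to all genes, which is short of 1.5-fold. The same held in TPM for Irf8 and Zbp1, which were called outside this group, at -0.50 and -0.43. At a fold of 2 only Igtp of the 4 was called. The length adjustment subtracts the median ratio of the 200 genes nearest in length, because longer transcripts had lower ratios over all tested genes (Spearman's rho -0.28 across genes, which are not independent replicates). With it, 9 members were called lower, against 7.25% of all genes, and 0 higher, against 2.99%. The 4 log2 ratios were then -0.88 for Gbp2, -0.75 for Gbp3, -1.31 for Igtp and -0.88 for Irgm1.

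Related GTPases outside the 42 also differed. In the list of other stimulated genes, 4 of 19 were called lower in replicate 2 and 0 higher, against 7.92% and 3.47% of all genes tested. These were Irgm2 (37.8 and 16.6 TPM, 2.40-fold), Iigp1 (28.7 and 13.9 TPM, 2.17-fold) and Gbp7 (12.2 and 5.89 TPM, 2.17-fold), all GTPases, and Eif2ak2 (9.07 and 5.93 TPM, 1.54-fold), the RNA-activated kinase. The GTPases Gbp4 (13.1 and 10.4 TPM) and Ifi47 (16.6 and 12.0 TPM) were not called, but Ifi47 was called lower after the length adjustment (log2 ratio -0.65). Igtp and Irgm2 share 162 exonic bases on the same strand, and the counts of Igtp, Gbp3, Irgm2 and Gbp7 in replicate 1, and of Gbp4 in both libraries, were not whole, so some reads there were shared. Of the 6 kinases and other receptor or transducer genes, 1 was called lower and 0 higher, against the same shares of all genes, 7.92% and 3.47%.

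The other 4 calls were 2 IRFs, 1 sensor and 1 effector. Irf2 was lower in replicate 2 by 2.03-fold, Irf8 by 1.53-fold (adjusted p = 2.06e-42, exact binomial test), Zbp1 by 1.51-fold (adjusted p = 6.61e-19, exact binomial test) and Oas3 by 2.61-fold (adjusted p = 3.63e-14, exact binomial test). Irf8 and Zbp1 lie just past the fold of 1.5, Ifit3, at 1.49-fold, just short of it, and scaling by total counts ends the calls of Irf8 and Zbp1. The receptors, the STAT genes and the IFITM genes had no call, with log2 ratios from -0.23 for Ifitm3 to 0.47 for Ifitm1. Of the 15 effectors 1 was called, and 9 had log2 ratios below 0 and 6 above, with a median of -0.16. Isg15, Isg20, Mx1, Mx2, Oas1a and Oas2 had log2 ratios between -0.02 and 0.13, while Ifit3 had -0.57 and Rsad2 -0.47. Among the 17 members with an ISRE core the median log2 ratio was -0.47, with 6 called lower: the 4 GTPases, Irf2 and Oas3. Among the 19 without it the median was -0.10, with 1 called lower, and over all genes tested 7.92% were. The share called among all genes with the core was not computed, and a link of the core to the calls was not tested.

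**Figure D4:**
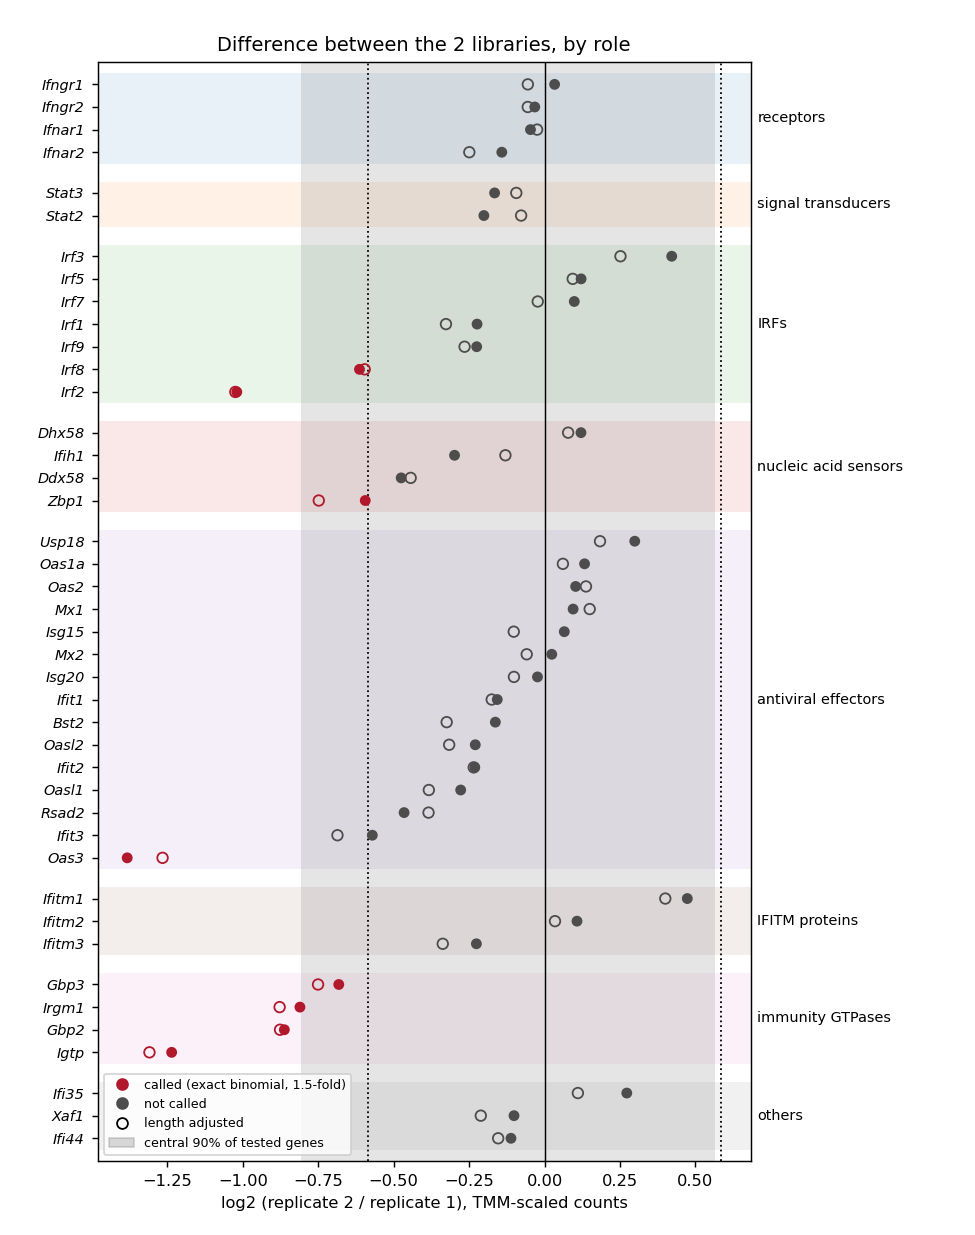
log2 ratio of replicate 2 to replicate 1 for each member by role, from TMM-scaled counts (filled) and after the length adjustment (open), with called members in red, dotted lines at 1.5-fold and a grey band for the central 90% of tested genes. All 4 GTPases lie left of the dotted line, and the receptors lie near 0.

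Levels that moved beside these calls were as follows, where over all genes tested 7.92% were called lower and 3.47% higher. Ifng, at 33 and 16 counts, was called lower in replicate 2 by 2.35-fold (adjusted p = 0.00892, exact binomial test). Of 4 T cell markers, which sum to 2.77 and 2.36 TPM, Cd4 was called lower, Cd8a was called higher and none reached 1 TPM in both libraries. Of 3 natural killer markers, which sum to 4.61 and 4.34 TPM, Ncr1 was called lower. Of 3 B cell markers, which sum to 0.86 and 0.75 TPM, Ms4a1 was called lower. The 3 neutrophil markers, which sum to 1.44 and 0.64 TPM, did not pass the filter on low counts and were not tested. S100a8 had 14 and 8 counts, S100a9 had 12 and 3, and Ly6g had 0 in both libraries. None of 6 macrophage markers was called, and their sum was 581 and 639 TPM. Of 5 conventional dendritic markers, Flt3 and Clec9a were called higher, and their sum was 7.38 and 9.67 TPM. Of 5 plasmacytoid markers, which sum to 29.8 and 39.8 TPM, 3 were tested and none was called. Most of that sum was Clec10a, at 27.8 and 37.0 TPM. Siglech had 1.43 and 2.37 TPM, and Klk1, which was not tested, had 16 and 8 counts. Of 3 endothelial markers Cdh5 was called lower, at 20.3 and 11.9 TPM. Pecam1, at 46.3 and 35.9 TPM, and Egfl7, at 108 and 156 TPM, were not called, and the sum was 175 and 204 TPM. Of 3 smooth muscle markers, which sum to 12830 and 11050 TPM, Myh11 was called lower. Of 3 fibroblast markers, which sum to 3477 and 3418 TPM, Col1a1 and Pdgfra were called lower, though not after the length adjustment, and the highest, Dcn, at 2371 and 2679 TPM, was not called. The 4 urothelial markers sum to 3458 and 4836 TPM, with no call. The part of these levels and of transcript length in the GTPase result was not tested.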

How the data were processed

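The members and gene lists were chosen with earlier results of these data known. Some genes of the lists are counted but not reported here by name. Per the deposited descriptions, the authors quantified each library on mm10 with GENCODE M4. Per the file headers, the deposited gene and transcript tables give expected counts (estimated fragments, not always whole) and TPM, scaled over all rows, spike-ins included. No aligner or counting tool is named: not given in the sources used here. The authors also deposited mm9 tables: RPKM of Ensembl 65 genes, of which only the mean of both values was used because no label ties them to a replicate, and junction read counts summed over both libraries.

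Rows that are not Ensembl genes took 5.01% and 5.98% of the counts and were left out. Names, positions and exons come from GENCODE M21, which held 42462 of the genes. Expected counts were rounded to whole numbers, filtered and scaled with edgeR 4.0.16 (R 4.3.3), and compared by exact binomial tests. The test code was checked on data simulated with counting error only, which says nothing about spread between libraries beyond it. DESeq2 1.42.0 supplied alternative size factors. For ratios between genes 0.5 TPM was added to each value before log2, so low genes have understated ratios. Members were all named, and of other lists the 3 highest, those called and those at 0 counts. Transcripts are named where their mean share was at least 10%, those of Irf3 excepted, with Mx1-201 added. Of 36 members with promoter windows, 35 had bases after the start in an M21 transcript on the same strand. Gene totals of 99367453 and 105057347 counts set the counting precision. Python 3.11.15, numpy 2.4.6, pandas 2.3.3, scipy 1.17.1 and matplotlib 3.10.9 were used.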

Additional observations from a re-analysis of the deposited data

How the results depend on the processing

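The number of members over the detection level was 41 at 0.5 TPM and with the posterior mean TPM, and 34 at 5 TPM, and was 41 with either library left out. The members' share was 0.186% of expected counts and 0.279% by the mean RPKM on mm9, against 0.249% of TPM, and 0.242% to 0.255% with 1 library left out. Members lower in replicate 2 numbered 3 at a fold of 2, 22 without a fold threshold, 5 by total counts, 8 by DESeq2 size factors or without the filter on low counts, and 9 after the length adjustment, which adds Ifit3. Members higher numbered 7 without a fold threshold, 1 by total counts (Ifitm1) and 0 in the other settings. Of all genes tested, 31.7% were lower and 31.8% higher without a fold threshold. At a fold of 2 these shares were 2.69% and 0.844%, and by total counts 5.49% and 6.78%. The median ratio of the members over 1 TPM, relative to all genes, was -0.15 and ran from -0.16 to -0.14. Of 21 gene pairs, Mx1 to Mx2 turned to 0.14 by the mean RPKM on mm9, and the others that exceeded their spread kept their direction there. Only bases before the start left 14 members with the ISRE core and 9 with the GAS core. No paired analysis was possible because there is 1 group. With 2 libraries of 1 group, differences between animals cannot be told apart from library effects.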
